A study of Sus scrofa with 12 samples.

Results

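Back muscle, the longissimus dorsi that runs along the spine, was compared between Meishan pigs at 3 days after birth (3 arrays) and Meishan fetuses at 65 days post coitus, dpc (3 arrays). These are 6 of the 12 arrays of the series, chosen by the stage in their labels, and the other 6 were taken at 60 and 120 days. No stage was sampled between 65 dpc and 3 days, and a change across birth means one over this whole span. Changes in the later fetus, at birth and in the first days after it cannot be told apart. Meishan is a Chinese pig breed, the animals were kept under ordinary commercial feeding, and neither stage had a treatment or a genetic change. Fetuses of one sow counted as a single individual, and the labels do not say whether their RNA was pooled, nor give the sex, the litter or the hour of sampling. The labels describe the 3 samples of a stage as biological replicates, and p-values measure the spread between these samples only. Of 23999 probe sets that were no controls, 16166 passed a filter on low values, and they stood for 5765 named genes. The families examined, other than the sarcomere and the energy pathways, held 1509 of these genes.

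Before birth the placenta supplies glucose and oxygen, and fetal muscle is a tissue in which fibres, connective tissue, vessels and nerves are still being laid down. Around birth glucocorticoids rise in the blood, milk brings a diet rich in fat, and the muscle begins to carry the body. Growing connective tissue depends on the secretory pathway, in which coated vesicles carry newly folded collagen and proteoglycans from the endoplasmic reticulum (ER) to the Golgi apparatus. Mitochondria have ribosomes and a protein import machinery of their own, which assemble the respiratory chain.

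The values are intensities of probe sets on Affymetrix porcine arrays, on a linear scale, so that they can be compared between arrays for a given gene but not between genes. Array medians lay between 49.8 and 52.6 in the 6 arrays, while the 25th and 75th percentiles differed by stage without overlap. Array 25th percentiles were 19.3, 18.6 and 20.2 in the fetus and 22.9, 22.2 and 21.2 at 3 days. Array 75th percentiles were 144, 153 and 147 in the fetus and 127, 129 and 136 at 3 days. Whether the higher 25th percentiles at 3 days add to the rises called in genes of low intensity was not tested. Precision is limited by the small number of arrays. Arrays correlated with r from 0.905 to 0.950 within the fetus, 0.932 to 0.979 within 3 days and 0.756 to 0.841 between the stages. The actin signal near the 3-prime end divided by that near the 5-prime end, a measure of RNA quality, was 2.64, 2.39 and 2.32 in the fetus and 4.69, 3.56 and 2.58 at 3 days. The same ratio of GAPDH was 1.45, 1.48 and 1.46 in the fetus and 1.02, 0.987 and 1.02 at 3 days, lower where that of actin had the higher mean. Of 13 measured markers of skeletal muscle 11 were called higher and 0 lower, where 22.7% of all genes were called higher and 19.0% lower. The calls of CKM, TNNC2, TTN, NEB and MYOT were lost when arrays were centred on the spiked hybridization controls. The summed intensity of the muscle markers was 37020 to 52381 in the fetus and 69017 to 76625 at 3 days. In such sums the brightest probe sets weigh most. Of 7 fibroblast markers 0 were higher and 5 lower, with sums of 10372 to 15312 and 4216 to 5692. In whole tissue, fewer cells of a type and less RNA per cell cannot be told apart. Of 10 endothelial markers 1 was higher and 1 lower, of 7 smooth muscle and pericyte markers 1 and 2, of 6 adipocyte markers 3 and 0, of 7 immune markers 1 and 0, and of 3 erythroid markers 0 and 1. Of 6 nerve and Schwann cell markers 3 were higher and 2 lower, and of 7 cartilage and bone markers 1 and 3. The summed immune markers ranged from 280.4 to 2259 over the fetal arrays and from 444 to 933 at 3 days.

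Between the fetus and 3 days 1307 genes were called higher (22.7% of 5765) and 1095 lower (19.0%) by limma at an adjusted p under 0.05. The counts of each family below are to be read against these shares. The median log2 change over all genes was 0.066, where a log2 change is that of the intensity plus 21, signed as 3 days minus fetus, which understates the change of dim genes. Changes given without a unit are on this scale. Errors of log2 changes are standard errors (SE), and those of mean intensities are SDs of 3 arrays. Of the called genes 513 were at least 2-fold higher and 478 at least 2-fold lower. In 52.4% of genes every array of a stage lay on the same side of the other stage's arrays. The families moved in different directions. Mitochondrial translation, tRNA synthetases, ribosome biogenesis, amino acid enzymes and antioxidant genes had more members higher than lower. Genes for the matrix, the secretory pathway, morphogen signalling, chromatin, adhesion, the actin cytoskeleton and the lysosome had more members lower. These directions hold against each array's own general level. A centring on the spiked hybridization controls moved the median over all probe sets to -0.24, and 12.2% of genes were then called higher and 27.9% lower. Over single probe sets 20.3% were called higher and 22.6% lower, 43.0% in all, and over genes at or above the median intensity 22.6% and 21.8%.

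**Figure D1:**
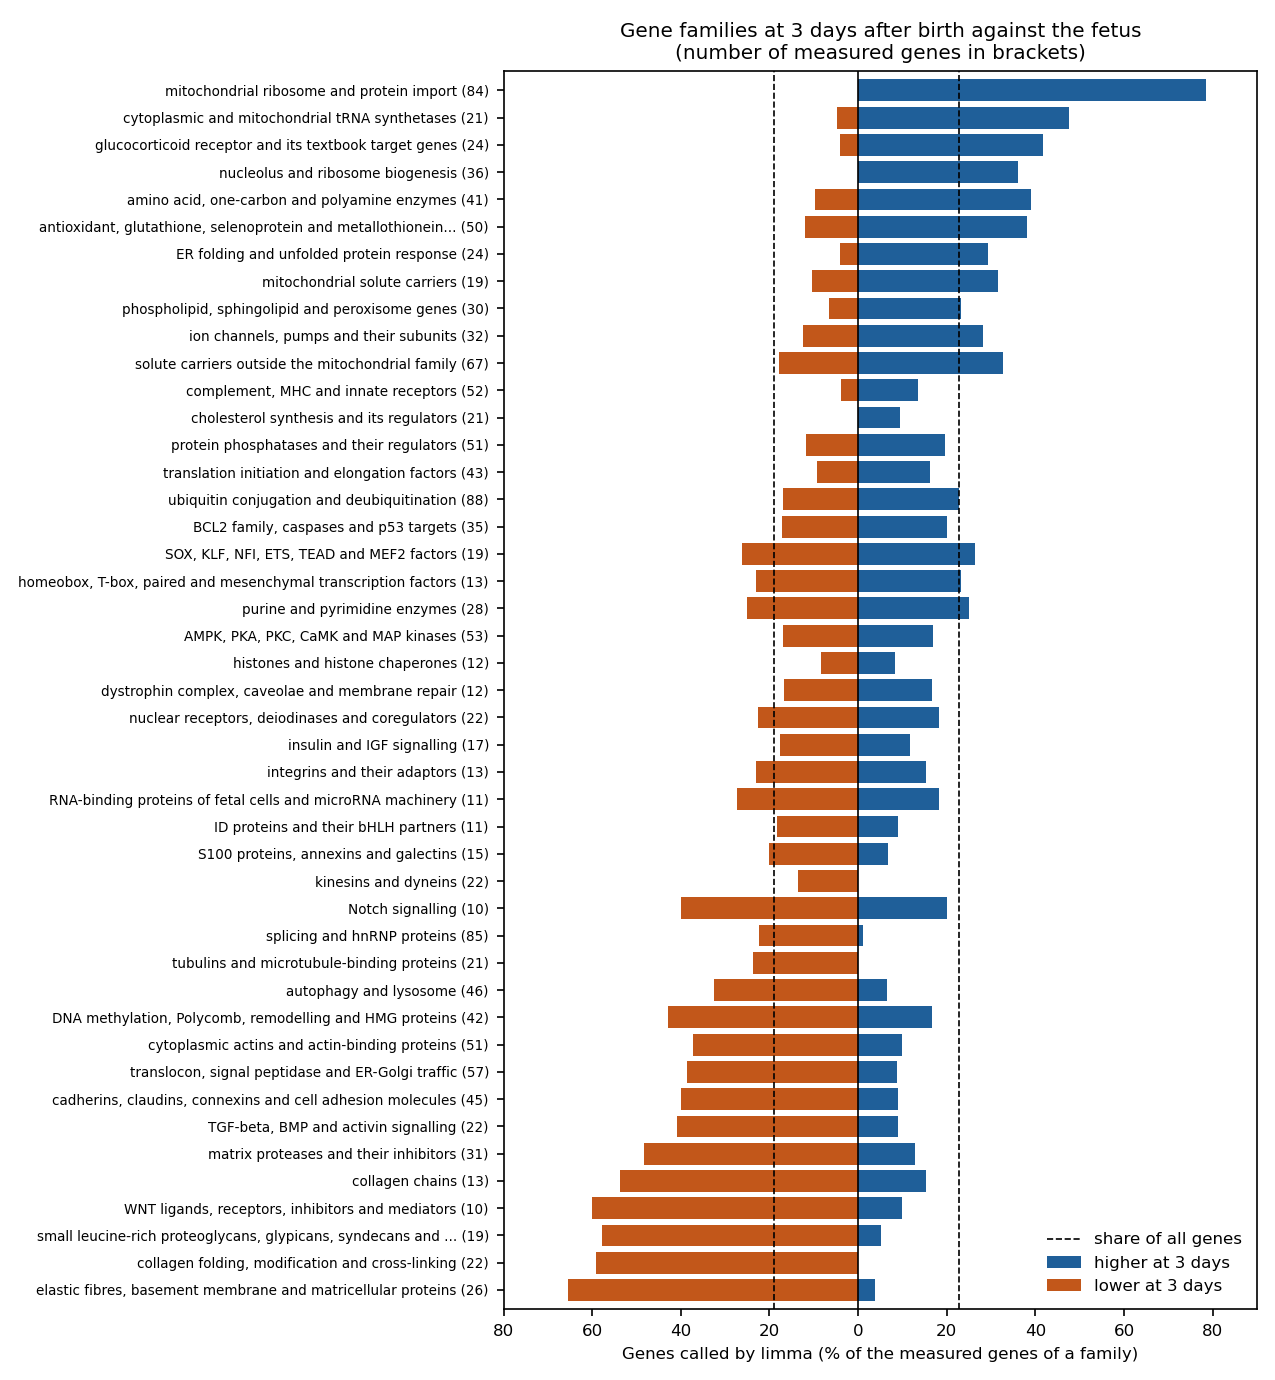
Share of the measured genes of each family called higher (blue, to the right) or lower (orange, to the left) at 3 days by limma at an adjusted p under 0.05, for the families reported here that had at least 10 measured genes. Dashed lines mark the shares among all 5765 genes, 22.7% higher and 19.0% lower. Mitochondrial ribosome and import genes reach 78.6% higher, and elastic fibre, basement membrane and matricellular genes 65.4% lower.

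Several of the largest rises were in genes that act outside the sarcomere and the respiratory chain. KLF9, a zinc finger transcription factor induced by glucocorticoids and thyroid hormone, read 24.7, 46.9 and 57.2 in the fetus and 620.3, 718 and 879 at 3 days. The lowest 3-day array lay far above the highest fetal one (log2 change 3.59 ± 0.25, limma adjusted p = 2.93e-06). TP53INP2, which helps to form autophagosomes and acts as a nuclear coactivator, read 50.9, 74.9 and 48.7 in the fetus and 979.8, 796 and 581 at 3 days (log2 change 3.33 ± 0.37, limma adjusted p = 5.31e-05). TFRC, the transferrin receptor through which cells take up iron, read 36.9, 41.0 and 44.4 in the fetus and 715, 578 and 379 at 3 days (log2 change 3.18 ± 0.49, limma adjusted p = 3.99e-04). HOMER2, a scaffold protein of calcium signalling complexes, rose from 70.2 ± 17.5 to 714 ± 191 (SD, n = 3; log2 change 3.00 ± 0.24, limma adjusted p = 6.83e-06), and both of its further probe sets were called higher. PPP1R1A, an inhibitor of protein phosphatase 1, rose from 221 ± 78.7 to 1807 ± 411 (log2 change 2.94 ± 0.31, limma adjusted p = 3.24e-05). LMCD1 and FHL3, LIM domain proteins of muscle, rose by 2.81 and 2.95 on the log2 scale.

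Further large rises were those of TMEM52, a membrane protein (3.13 ± 0.34), FBP2, the muscle fructose bisphosphatase that runs against glycolysis (3.09 ± 0.45), CHCHD10, a protein of the mitochondrial intermembrane space (2.63 ± 0.36), and ECH1, an enzyme for unsaturated fatty acids (2.70 ± 0.26). FBP2 varied within 3 days. It read 77.6, 77.2 and 54.2 in the fetus and 1420, 1033 and 276 at 3 days, so that its lowest 3-day array still lay above the fetal range. ATF3, a stress-induced transcription factor, read 71.6, 124 and 159.8 in the fetus and 1792, 2536 and 225 at 3 days. This was a rise (log2 change 2.96 ± 0.88, limma adjusted p = 0.0172) with wide spread at 3 days. The rise was not called without fetal array 1 (adjusted p = 0.0561), 3-day array 1 (adjusted p = 0.0665) or 3-day array 2 (adjusted p = 0.0734).

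**Figure D2:**
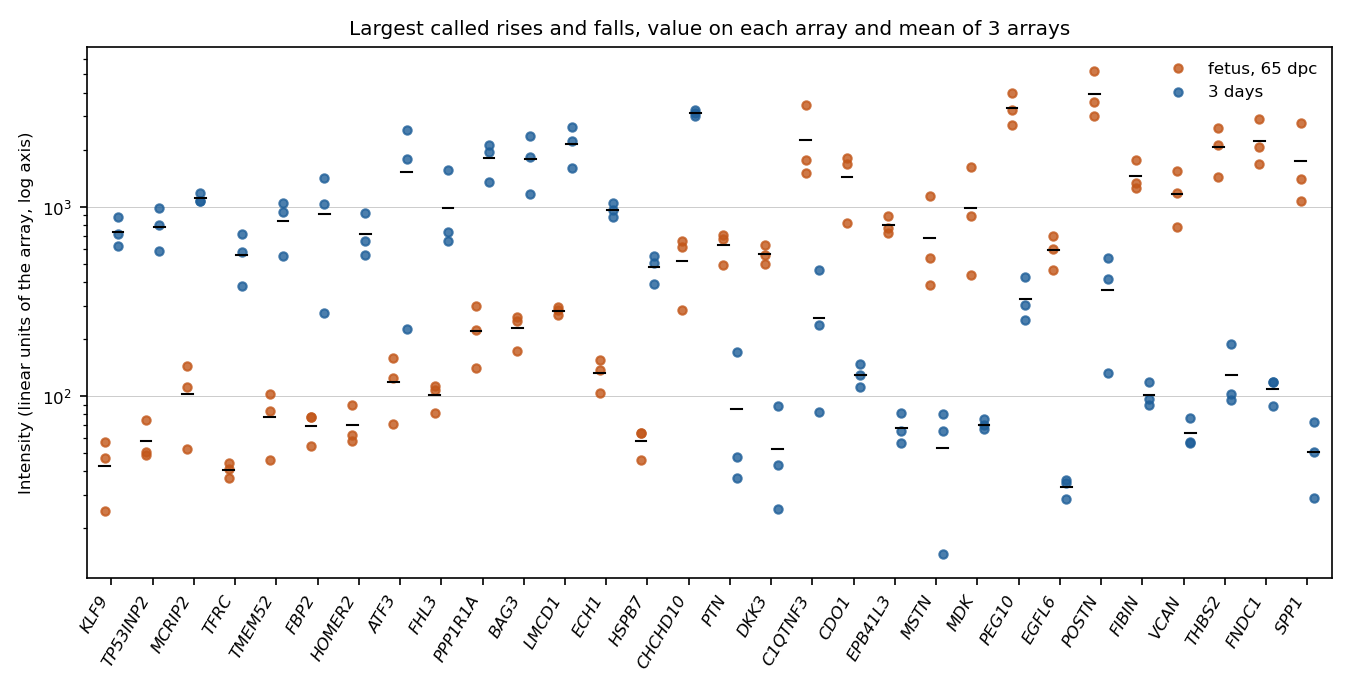
Intensity on each array (points, log axis, linear units of the array) and the mean of 3 arrays (bars) for the 15 largest called rises (left) and the 15 largest called falls (right) outside the contractile and energy lists, among genes at or above the median intensity whose stages did not overlap, fetus at 65 dpc in orange and 3 days in blue. The lack of overlap was a condition of the choice, and levels cannot be compared between genes.

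Secreted proteins were among the largest falls. SPP1, osteopontin, a secreted ligand of integrins, read 1068, 1405 and 2760 in the fetus and 50.6, 28.8 and 72.9 at 3 days (log2 change -4.55 ± 0.35, limma adjusted p = 4.56e-06). MDK and PTN, the midkine and pleiotrophin growth factors that bind heparan sulfate, fell together. MDK read 895, 438 and 1630 in the fetus and 70.1, 75.3 and 66.9 at 3 days (log2 change -3.27 ± 0.44, limma adjusted p = 1.69e-04). PTN read 494, 674 and 708 in the fetus and 37.0, 47.5 and 171 at 3 days (log2 change -2.81 ± 0.40, limma adjusted p = 2.41e-04). Both left a gap between the stages, although MDK spread widely among the fetal arrays. CDO1, cysteine dioxygenase, which starts the conversion of cysteine to taurine and sulfate, fell from 1440 ± 538 to 129 ± 17.7 (log2 change -3.21 ± 0.33, limma adjusted p = 3.23e-05). EPB41L3, a cytoskeletal linker under the membrane, fell from 799 ± 87.9 to 67.6 ± 12.7 (log2 change -3.21 ± 0.23, limma adjusted p = 3.69e-06). C1QTNF3, a secreted C1q-related protein, fell (log2 change -3.18 ± 0.82, limma adjusted p = 0.00844).

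Hormone genes were examined first among the families. Of 24 measured genes in the list of the glucocorticoid receptor and its textbook targets, 10 rose and 1 fell (41.7% and 4.17%, against 22.7% and 19.0% of all genes), with a median of 0.60. FKBP5, a co-chaperone that restrains the receptor, read 89.8, 62.6 and 191 in the fetus and 356, 589.7 and 1129 at 3 days. The ranges were apart (log2 change 2.36 ± 0.41, limma adjusted p = 8.07e-04), and its further probe set was called higher. ANGPTL4, a secreted inhibitor of lipoprotein lipase, read 17.7, 17.3 and 28.9 in the fetus and 71.6, 138 and 229 at 3 days (log2 change 1.88 ± 0.38, limma adjusted p = 0.00201). CEBPD, a C/EBP transcription factor, rose by 2.37 with overlapping arrays (166, 82.9 and 1047 in the fetus and 1030, 695 and 3814 at 3 days), and TSC22D3, a mediator of the anti-inflammatory action of glucocorticoids, by 1.04. HSD11B1, which regenerates active cortisol from cortisone, rose by 0.93 ± 0.35 (limma adjusted p = 0.0495).

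The member that fell was the receptor itself. NR3C1, the glucocorticoid receptor, read 280.4, 499.7 and 434 in the fetus and 91.2, 132 and 138 at 3 days. The highest 3-day array lay below the lowest fetal one (log2 change -1.57 ± 0.25, limma adjusted p = 5.38e-04), and 2 of its 3 further probe sets were called lower. Some classical targets did not pass the test. SGK1, a kinase of ion transport, read 305, 458 and 314 in the fetus and 286, 155 and 186 at 3 days (log2 change -0.74 ± 0.29, limma adjusted p = 0.0585). DUSP1, a phosphatase that switches off MAP kinases, overlapped between the stages (log2 change -0.085 ± 0.25, limma adjusted p = 0.807). The count of the list depended on single arrays. It was 6 higher without fetal array 1, fetal array 2 or 3-day array 3, and 2 lower without 3-day array 1 or 60-day array 3. The call of CEBPD was lost without fetal array 1 (adjusted p = 0.0765), fetal array 2 (adjusted p = 0.107) or 3-day array 3 (adjusted p = 0.0926), that of TSC22D3 without fetal array 1 (adjusted p = 0.118), fetal array 2 (adjusted p = 0.0854), 3-day array 1 (adjusted p = 0.0581) or 3-day array 3 (adjusted p = 0.137), and that of HSD11B1 in 9 of the 12 fits that left out 1 array, at an adjusted p of 0.183 and a change of 0.62 without 3-day array 3. TSC22D3 (adjusted p = 0.145) and HSD11B1 (0.146) also lost their calls under hybridization-control centring.

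Among 22 nuclear receptors, deiodinases and coregulators 4 rose and 5 fell (18.2% and 22.7%, against 22.7% and 19.0% of all genes). The coactivators NCOA1 and NCOA2, which link many nuclear receptors to the transcription machinery, fell. NCOA1 read 467, 525 and 427 in the fetus and 209, 171 and 169 at 3 days (log2 change -1.28 ± 0.18, limma adjusted p = 2.44e-04), and 4 of its 4 further probe sets were called lower. NCOA2 read 299.9, 376 and 349 in the fetus and 98.2, 127 and 129 at 3 days (log2 change -1.39 ± 0.16, limma adjusted p = 6.47e-05). Both genes left a clear gap between the stages. NR2F2, an orphan receptor of mesenchymal cells, fell from 609 ± 242 to 258 ± 31.7 (log2 change -1.11 ± 0.25, limma adjusted p = 0.00408). THRA, a thyroid hormone receptor, fell (log2 change -0.93 ± 0.27, limma adjusted p = 0.0148), while a further probe set was called higher, and leaving out fetal array 2 (adjusted p = 0.0584) or 3-day array 1 (adjusted p = 0.0664) ended the call. RORA, a receptor that drives clock genes, rose from 32.6 ± 7.76 to 141 ± 90.3 (log2 change 1.46 ± 0.35, limma adjusted p = 0.00621). ESR1, an estrogen receptor, and PPARD, a receptor for fatty acids, did not pass the test (log2 changes of 0.09 and -0.14), and both probe sets were dim, meaning that neither stage's mean reached the median of all kept values, 92.6. The further probe set of PPARD was called higher.

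**Figure D3:**
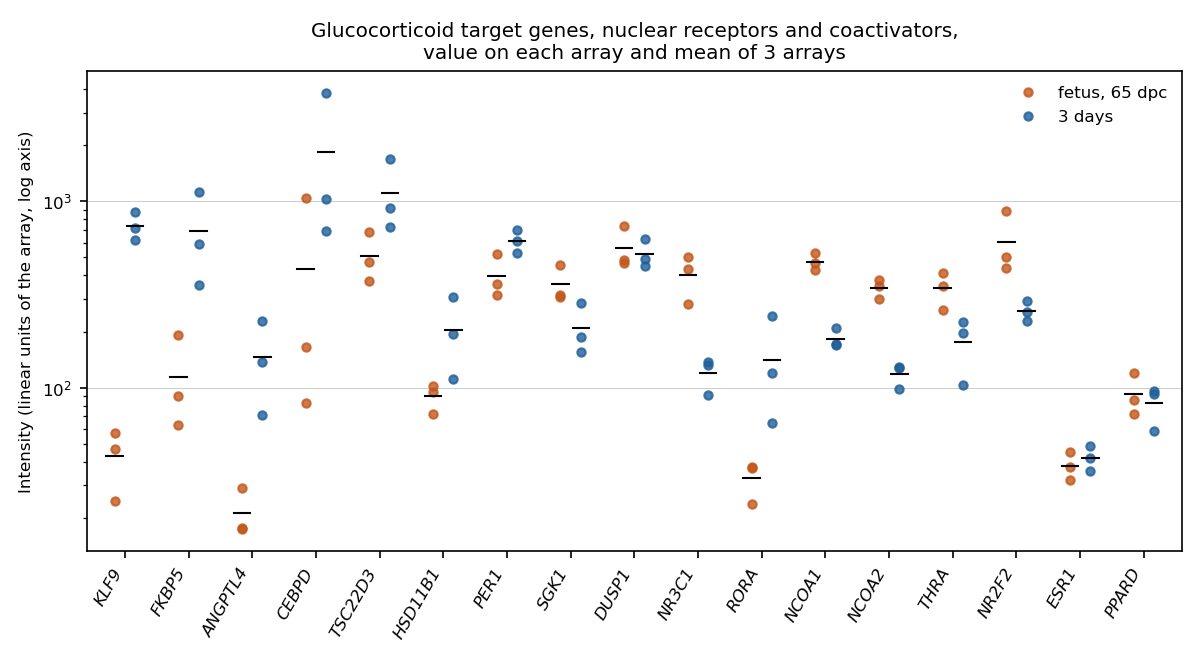
Intensity on each array (points, log axis, linear units of the array) and the mean of 3 arrays (bars) for genes of the glucocorticoid and nuclear receptor families, fetus at 65 dpc in orange and 3 days in blue. KLF9, FKBP5 and ANGPTL4 are higher at 3 days, NR3C1, NCOA1 and NCOA2 lower, each without overlap, and DUSP1, ESR1 and PPARD overlap.

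Of 8 measured circadian clock genes 3 rose (RORA, CRY2 and PER1) and 0 fell by limma (0 at an unadjusted p under 0.05 as well). CRY2, a repressor of the clock, read 74.5, 74.1 and 113 in the fetus and 240.4, 256 and 115 at 3 days (log2 change 1.01 ± 0.28, limma adjusted p = 0.0131). PER1 had a log2 change of 0.62 ± 0.22, and its further probe set was called lower. The clock is read at 1 unknown hour per animal. Without 3-day array 1 only 1 of the list was called. The call of CRY2 was lost without 3-day array 1 (adjusted p = 0.055) or 3-day array 2 (adjusted p = 0.0587), and that of PER1 in 6 of the 12 fits that left out 1 array (adjusted p up to 0.129) and on hybridization-control centring (0.271).

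In insulin and IGF signalling 2 of 17 genes rose and 3 fell. IGFBP2, a binding protein that holds IGFs in the circulation and tissue, read 467, 222 and 294 in the fetus and 66.7, 60.6 and 109.9 at 3 days (log2 change -1.77 ± 0.25, limma adjusted p = 2.55e-04). IRS1, a docking protein of the insulin receptor, rose from 24.2 ± 4.66 to 79.3 ± 21.2 (log2 change 1.13 ± 0.20, limma adjusted p = 9.03e-04) on a dim probe set. AKT1, a kinase downstream of the insulin receptor, fell (log2 change -0.76 ± 0.24, limma adjusted p = 0.0233), and this call was lost without fetal array 2 (adjusted p = 0.0887) or 3-day array 2 (adjusted p = 0.0787). IGF1 (0.26) and its receptor IGF1R (-0.42) did not pass and were dim, although 1 of the 2 further probe sets of IGF1 was called higher. Without fetal array 2 only 1 gene of the list was called lower, and on the hybridization controls 1 was higher and 6 lower.

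Signalling families that pattern embryonic tissue, with ligands, receptors, inhibitors and mediators counted together, had more members lower. Of 10 measured WNT genes 6 fell and 1 rose, with a median of -0.68. DKK3, a secreted Dickkopf protein, read 498, 629 and 553 in the fetus and 88.9, 43.3 and 25.4 at 3 days, and the stages were far apart (log2 change -3.07 ± 0.37, limma adjusted p = 8.34e-05). TCF7L1, a transcription factor that represses WNT targets, fell from 182 ± 55.6 to 39.2 ± 4.67 (log2 change -1.72 ± 0.21, limma adjusted p = 8.50e-05). SFRP1, a secreted decoy for WNT ligands, and FZD2, a WNT receptor, fell (log2 changes of -1.49 and -0.79). WNT10B, the only WNT ligand measured, was the member that rose (0.69), on a dim probe set. CTNNB1, beta-catenin, the central mediator, read 1430, 1353 and 1590 in the fetus and 1303, 1469 and 1573 at 3 days and did not pass (-0.01 ± 0.19, limma adjusted p = 0.971), while 2 of its 4 further probe sets were called lower.

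In TGF-beta, BMP and activin signalling 9 of 22 genes fell and 2 rose, with a median of -0.42. The ligands TGFB2 and TGFB3 fell. TGFB2 read 339, 413 and 373 in the fetus and 83.5, 119 and 64.4 at 3 days (log2 change -1.87 ± 0.21, limma adjusted p = 5.46e-05), and all 3 of its further probe sets were called lower. TGFB3 read 179.6, 204 and 201 in the fetus and 51.1, 42.7 and 31.4 at 3 days (log2 change -1.79 ± 0.18, limma adjusted p = 2.32e-05). TGFB1, the ligand of most adult tissues, read 42.5, 43.7 and 76.8 in the fetus and 55.4, 60.4 and 62.7 at 3 days on a dim probe set and did not pass. Among receptors and mediators ACVR1, a type I receptor for BMPs, fell (log2 change -1.50) and so did SMAD1, which carries BMP signals to the nucleus (-1.16). SMAD4, the partner of all receptor-activated SMADs, did not pass (log2 change -0.45 ± 0.21, limma adjusted p = 0.109). The genes called higher were FSTL3, a secreted inhibitor of activin and myostatin (0.69), and BMP7 (0.54), a BMP ligand, on a dim probe set. Without 3-day array 1 the change of BMP7 was 0.36. With hybridization-control centring both were lost (adjusted p = 0.0975 and 0.0707), and 13 genes of the list were lower.

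Of 8 measured FGF genes, out of 20 in the list, 5 fell and 3 rose, and the 3 that rose were dim. FGFR1, an FGF receptor of myoblasts, read 454, 606 and 407 in the fetus and 178, 185 and 208 at 3 days (log2 change -1.26 ± 0.20, limma adjusted p = 4.94e-04). FGF7, a ligand made by mesenchymal cells, and FGF13, an intracellular relative that binds ion channels, fell (log2 changes of -1.52 and -1.59). DUSP6, a phosphatase induced by FGF signals that shuts off ERK, read 306, 462 and 324 in the fetus and 102, 137 and 139.6 at 3 days (log2 change -1.38 ± 0.23, limma adjusted p = 7.36e-04). Only 1 FGF gene was called higher without fetal array 2, 3-day array 1 or 3-day array 2, and 0 were higher by limma on the hybridization controls.

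Of 10 Notch genes 4 fell and 2 rose. LFNG, which adds sugars to Notch receptors and tunes their ligands, read 413, 636 and 329 in the fetus and 111, 161 and 69.8 at 3 days (log2 change -1.84 ± 0.28, limma adjusted p = 3.70e-04). HES1, a repressor switched on by Notch, fell from 364 ± 101 to 147 ± 60.0 (log2 change -1.24 ± 0.32, limma adjusted p = 0.00839). Of the metalloproteases that cut Notch, ADAM10 fell (-0.74 ± 0.19) and ADAM17 rose from 46.3 ± 4.0 to 129 ± 19.1 (log2 change 1.15 ± 0.24, limma adjusted p = 0.00227). NOTCH4 was the other gene called higher, on a dim probe set, and without fetal array 1, fetal array 2 or 3-day array 1 only 1 was higher. RBPJ, the DNA-binding partner of Notch, did not pass (0.30), though both of its further probe sets were called lower. Of 7 axon guidance genes 3 fell and 2 rose, among them NEO1, a netrin receptor (-1.29), and PLXNA2, a semaphorin receptor (-0.78), which fell. Those counts were 1 higher without fetal array 1, fetal array 2, 3-day array 1 or 3-day array 3, and 2 lower without fetal array 2 or 3-day array 3.

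Transcription factors moved in both directions. Of 19 SOX, KLF, NFI, ETS, TEAD and MEF2 genes 5 rose and 5 fell (26.3% each, against 22.7% and 19.0% of all genes). The nuclear factor I proteins, which bind as dimers to the same DNA motif, differed in direction. NFIA read 554, 742 and 496 in the fetus and 246, 269 and 180.3 at 3 days (log2 change -1.29 ± 0.27, limma adjusted p = 0.00251). NFIB read 1081, 1696 and 924 in the fetus and 438, 512 and 256 at 3 days (log2 change -1.57 ± 0.30, limma adjusted p = 0.00158). NFIC rose from 259 ± 33.8 to 471 ± 63.7 (log2 change 0.81 ± 0.27, limma adjusted p = 0.0275), but this call was lost without fetal array 3 (adjusted p = 0.0781), 3-day array 1 (adjusted p = 0.0711) or 3-day array 3 (adjusted p = 0.0770) and on the hybridization controls (0.120). ETV5, an ETS factor, fell from 179 ± 13.4 to 68.4 ± 7.03 (log2 change -1.16 ± 0.17, limma adjusted p = 2.76e-04). TEAD1, a partner of YAP, and MEF2D, a factor of muscle differentiation, did not pass (0.33 and -0.29). Without fetal array 2 or 3-day array 2 the list had 3 genes lower, and without 3-day array 3 it had 3 higher. By hybridization-control centring 2 were higher and 7 lower.

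Of 13 homeobox, T-box, paired and mesenchymal factors 3 rose and 3 fell (23.1% each, against 22.7% and 19.0% of all genes). MEOX2, a homeobox gene of somites and limb muscle, read 173, 321 and 119 in the fetus and 55.4, 38.6 and 30.2 at 3 days (log2 change -1.77 ± 0.34, limma adjusted p = 0.00159). HOXA3 fell (log2 change -0.83). PRRX1, a homeobox gene of mesenchyme, rose from 42.8 ± 2.39 to 108 ± 16.9 (log2 change 1.01 ± 0.14, limma adjusted p = 2.43e-04). The list had 1 gene higher without fetal array 2 or 3-day array 1 and on the hybridization controls, where 5 were lower. Among 11 ID proteins and their partners 2 fell and 1 rose. ID1, an inhibitor of differentiation, changed by -1.09 ± 0.40, a call that was lost in 7 of the 12 fits that left out 1 array (adjusted p up to 0.169, with a change of -0.65, without 3-day array 3), and ID2, the gene that rose, was dim with overlapping arrays. Without fetal array 1 or 2 this list had 0 higher and 1 lower by limma, without fetal array 3 it had 2 and 1, without 3-day array 1 or 2 it had 0 and 2, and without any 1 of the 120-day arrays 1 and 1.

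Chromatin proteins were lower more often than higher. Of 42 genes for DNA methylation, Polycomb, remodelling and HMG proteins 18 fell (42.9%) and 7 rose (16.7%), with a median of -0.35. SMARCA1 and SMARCA5, the motors of ISWI remodellers, fell. SMARCA1 read 527, 889 and 512 in the fetus and 161, 194 and 134 at 3 days (log2 change -1.82 ± 0.26, limma adjusted p = 2.68e-04), and SMARCA5 read 415, 738 and 421 in the fetus and 184, 213 and 214 at 3 days (log2 change -1.23 ± 0.24, limma adjusted p = 0.00179). Polycomb genes were among the falls. PHC1, a subunit of the first Polycomb complex, changed by -1.28 ± 0.18 and EZH2, its histone methyltransferase counterpart in the other complex, by -1.16 ± 0.17, while EED, a scaffold of that complex, did not pass (-0.23). DNMT1, which copies DNA methylation at replication, read 508, 691 and 342 in the fetus and 167, 178 and 275 at 3 days (log2 change -1.21 ± 0.25, limma adjusted p = 0.00231). DNMT3A, a methyltransferase for new sites, did not pass (0.19), and DNMT3B rose on a dim probe set (0.76). HMGB2 and HMGN1, abundant proteins that bend or open chromatin, fell (log2 changes of -1.28 and -0.72).

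SMYD2, a lysine methyltransferase expressed in heart and skeletal muscle, rose from 140.0 ± 29.7 to 314 ± 143 (log2 change 0.99 ± 0.33, limma adjusted p = 0.0278). That call was lost without fetal array 1 (adjusted p = 0.0879), fetal array 2 (adjusted p = 0.0685) or 3-day array 3 (adjusted p = 0.109) and on the hybridization controls (0.115). The count of chromatin genes higher was 3 without fetal array 1, 3-day array 1 or 3-day array 2 and 2 without fetal array 2. In the hybridization-control centring 1 was higher and 23 lower. Of 12 histones and histone chaperones 1 rose and 1 fell, and H3F3A, a replication-independent histone, read 2953, 2945 and 3012 in the fetus and 2603, 2799 and 2813 at 3 days without passing the test. With 1 array left out the histones had 0 higher by limma without fetal array 2 or 3, 3-day array 2 or 3, 60-day array 1 or any 120-day array. They had 0 lower without fetal array 2, 3 without fetal array 3, and 2 without 3-day array 3 or 60-day array 2.

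Genes for making proteins were examined by compartment. Of 84 genes of the mitochondrial ribosome and protein import 66 rose (78.6%) and 0 fell by limma, also at an unadjusted p under 0.05, with a median of 1.06, and 50 still rose on the hybridization controls. MRPL58, a release factor that became part of the mitochondrial ribosome, read 63.5, 47.6 and 53.3 in the fetus and 320.4, 310.3 and 269 at 3 days (log2 change 2.08 ± 0.21, limma adjusted p = 2.80e-05). MRPL38 and MRPL51, proteins of the large subunit, rose by 2.0 and 1.98, and TIMM8A, a chaperone of the intermembrane space, from 147 ± 64.1 to 613 ± 107 (log2 change 1.97 ± 0.30, limma adjusted p = 3.43e-04). The stages did not overlap in 74 of the 84 genes, and in 52.4% of all genes. Some members stayed within the spread. TFAM, which packages mitochondrial DNA, read 257, 358 and 198 in the fetus and 272, 306 and 305 at 3 days (log2 change 0.15 ± 0.21, limma adjusted p = 0.598), and TOMM20, an import receptor, had a log2 change of 0.49 ± 0.23 (adjusted p = 0.103).

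Of 21 cytoplasmic and mitochondrial tRNA synthetase genes 10 rose and 1 fell, with a median of 0.51. AIMP2, a scaffold of the complex that holds several synthetases, read 135, 74.2 and 106 in the fetus and 629, 365 and 503 at 3 days (log2 change 2.04 ± 0.25, limma adjusted p = 1.0e-04). SARS, the seryl-tRNA synthetase, read 149, 159 and 161 in the fetus and 440.2, 509 and 1431 at 3 days (log2 change 2.0 ± 0.34, limma adjusted p = 7.73e-04), and its fetal arrays were nearly equal while 3-day array 3 stood above the others. FARS2, a mitochondrial synthetase, rose from 52.3 ± 8.20 to 135 ± 12.3 (log2 change 1.10 ± 0.13, limma adjusted p = 7.96e-05). KARS, the lysyl-tRNA synthetase that serves both compartments, was the member that fell, from 3040 ± 883 to 1539 ± 393 (log2 change -0.97 ± 0.24, limma adjusted p = 0.00752). LARS and WARS did not pass (-0.39 and -0.79). Without fetal array 3 the list had 6 genes higher, and on the hybridization controls 5.

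Of 36 nucleolus and ribosome biogenesis genes 13 rose (36.1%) and 0 fell by limma, also at an unadjusted p under 0.05, with a median of 0.45. NHP2, a protein of the RNA-guided particles that modify ribosomal RNA, read 799, 309 and 316 in the fetus and 1416, 1266 and 1477 at 3 days (log2 change 1.64 ± 0.32, limma adjusted p = 0.00187). NOP16 and GNL3, nucleolar proteins, rose by 1.44 and 1.31, and EMG1, a methyltransferase of ribosomal RNA, by 1.26. FBL, fibrillarin, did not pass (log2 change 0.68 ± 0.34, limma adjusted p = 0.120), and NPM1, nucleophosmin, read 2594, 2802 and 2872 in the fetus and 2380, 2437 and 3317 at 3 days, with overlapping arrays. Without fetal array 2 or fetal array 3 the list had 8 genes higher, and on the hybridization controls 8 higher and 1 lower.

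Translation factors gave a smaller and mixed picture. Of 43 genes 7 rose and 4 fell, below the share of all genes in both directions. EIF1, which guards the choice of the start codon, read 2712, 2879 and 3246 in the fetus and 5612, 4970 and 5718 at 3 days (log2 change 0.88 ± 0.15, limma adjusted p = 6.91e-04). EIF4G3, a scaffold of the cap-binding complex, rose by 1.09. PABPC1, which coats the poly(A) tail, fell from 3946 ± 1140 to 2171 ± 513 (log2 change -0.84 ± 0.23, limma adjusted p = 0.0111), and EIF3L, a subunit of the initiation factor that binds the small ribosomal subunit, from 1318 ± 209 to 603 ± 176 (log2 change -1.13 ± 0.26, limma adjusted p = 0.00484). EIF4E, the cap-binding protein, did not pass (0.57). The count lower was 2 without fetal array 2 or 3-day array 1, and on the hybridization controls the list turned to 3 higher and 6 lower.

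Splicing and hnRNP genes were a large family in which few members were higher. Of 85 genes 1 rose and 19 fell (22.4%), with a median of -0.26, and the gene that rose, U2AF2, was dim. RBFOX2, a splicing regulator of muscle and nerve exons, read 740.3, 627 and 497 in the fetus and 249, 320.5 and 229 at 3 days (log2 change -1.16 ± 0.23, limma adjusted p = 0.00205). MBNL3, the muscleblind protein tied to undifferentiated muscle cells, fell from 99 ± 33.7 to 21.2 ± 2.41 (log2 change -1.47 ± 0.17, limma adjusted p = 6.54e-05), and RBMS2, an RNA-binding protein, from 249.6 ± 35.2 to 80.9 ± 3.72 (log2 change -1.40 ± 0.19, limma adjusted p = 1.64e-04). Core components such as HNRNPK (-0.38) and SRSF1 (-0.27) did not pass the test. Without fetal array 3 or 120-day array 3 there were 2 genes higher, and without 60-day array 1 there were 4. After quantile normalization 6 were higher and 19 lower, and after hybridization-control centring 1 was higher and 36 lower. At an unadjusted p under 0.05 there were 6 higher and 26 lower.

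Among 11 RNA-binding proteins of fetal cells and the microRNA machinery 2 rose and 3 fell. CIRBP, a cold-inducible RNA-binding protein, read 231, 189 and 273 in the fetus and 77.5, 90.8 and 125 at 3 days (log2 change -1.09 ± 0.18, limma adjusted p = 5.67e-04). RBM3, the other cold-inducible member, changed by -1.17 ± 0.40 (limma adjusted p = 0.0315), a call lost without fetal array 1 (adjusted p = 0.0769), fetal array 2 (adjusted p = 0.105) or 3-day array 3 (adjusted p = 0.122). PUM2, a repressor that binds 3-prime ends of messages, fell (log2 change -1.09). YBX3, a cold-shock domain protein of muscle, rose from 3513 ± 808 to 5787 ± 875 (log2 change 0.73 ± 0.18, limma adjusted p = 0.00587), which was lost on the hybridization controls (0.0850), and its relative YBX1 overlapped between the stages (-0.026). On the hybridization controls 5 genes of this list were lower, and both calls in the higher direction were lost.

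Secretory pathway genes were lower more often than higher. Of 57 genes of the translocon, the signal peptidase and ER-Golgi traffic 22 fell (38.6%) and 5 rose (8.77%), with a median of -0.28. Coat proteins of both vesicle types were among the falls. SEC23A, SEC24D and SEC31A form the COPII coat that buds from the ER. SEC23A read 667, 1155 and 439 in the fetus and 258, 289 and 191 at 3 days (log2 change -1.45 ± 0.32, limma adjusted p = 0.00395). SEC24D and SEC31A fell (log2 changes of -1.32 and -1.23). In the COPI coat, which returns proteins to the ER, COPG2 read 665, 977 and 741 in the fetus and 167, 199.6 and 180.3 at 3 days (log2 change -1.99 ± 0.25, limma adjusted p = 9.81e-05), and COPA and COPB1 fell (log2 changes of -1.0 and -1.11). KDELR2, the receptor that retrieves ER proteins, fell from 1267 ± 194 to 493 ± 98.8 (log2 change -1.33 ± 0.22, limma adjusted p = 5.59e-04). OSTC, a subunit of the enzyme that adds sugar chains, fell from 1577 ± 601 to 434 ± 136 (log2 change -1.79 ± 0.37, limma adjusted p = 0.00250).

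Not all of this family went the same way. SAR1B, a GTPase that starts COPII coats, read 464, 357 and 414 in the fetus and 1324, 1142 and 1862 at 3 days (log2 change 1.74 ± 0.27, limma adjusted p = 4.21e-04). Several coat proteins did not pass, among them SEC23B (-0.12), SEC24C (-0.17), SEC13 (0.30), COPB2 (-0.28) and COPG1 (-0.28). SRP9, of the signal recognition particle, rose by 0.81, a call lost on the hybridization controls (0.0632). ARF1, the GTPase of the COPI coat, read 1758, 2714 and 1838 in the fetus and 1856, 1890 and 2265 at 3 days, with overlapping arrays. Without 3-day array 1 the family had 3 genes higher and 14 lower. Under hybridization-control centring it had 1 and 28.

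ER folding and the unfolded protein response had more genes called higher than lower, though the share higher was near that of all genes. Of 24 genes 7 rose and 1 fell (29.2% and 4.17%, against 22.7% and 19.0% of all genes), with a median of 0.45. ATF4, the transcription factor of the integrated stress response, read 941, 978 and 1055 in the fetus and 1771, 1380 and 2878 at 3 days (log2 change 0.94 ± 0.24, limma adjusted p = 0.00740). SDF2L1 and DNAJB11, helpers of the chaperone BiP, rose by 0.95 and 0.87. HSPA5, which encodes BiP, read 982, 1016 and 1754 in the fetus and 3322, 1929 and 1878 at 3 days and did not pass (log2 change 0.91 ± 0.35, limma adjusted p = 0.0511). PDIA6, a disulfide isomerase, was the member that fell (-0.67 ± 0.22, limma adjusted p = 0.0292), and XBP1, a factor that expands the ER, did not pass (0.054). The count higher was 3 without fetal array 1, fetal array 2 or 3-day array 2, 2 without 3-day array 1 and 4 without 3-day array 3, the count lower was 2 without fetal array 1 and 0 without 3-day array 1 or 2, and on the hybridization controls the direction turned to 2 higher and 3 lower. The calls of ATF4 (0.0746) and DNAJB11 (0.154) were lost in that centring, SDF2L1 was lost without fetal array 2 (adjusted p = 0.0575) or 3-day array 2 (adjusted p = 0.0510), PDIA6 without fetal array 2 (adjusted p = 0.0936), 3-day array 1 (adjusted p = 0.0941) or 3-day array 2 (adjusted p = 0.0941), and DNAJB11 in 8 of the 12 fits that left out 1 array (adjusted p up to 0.137).

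**Figure D4:**
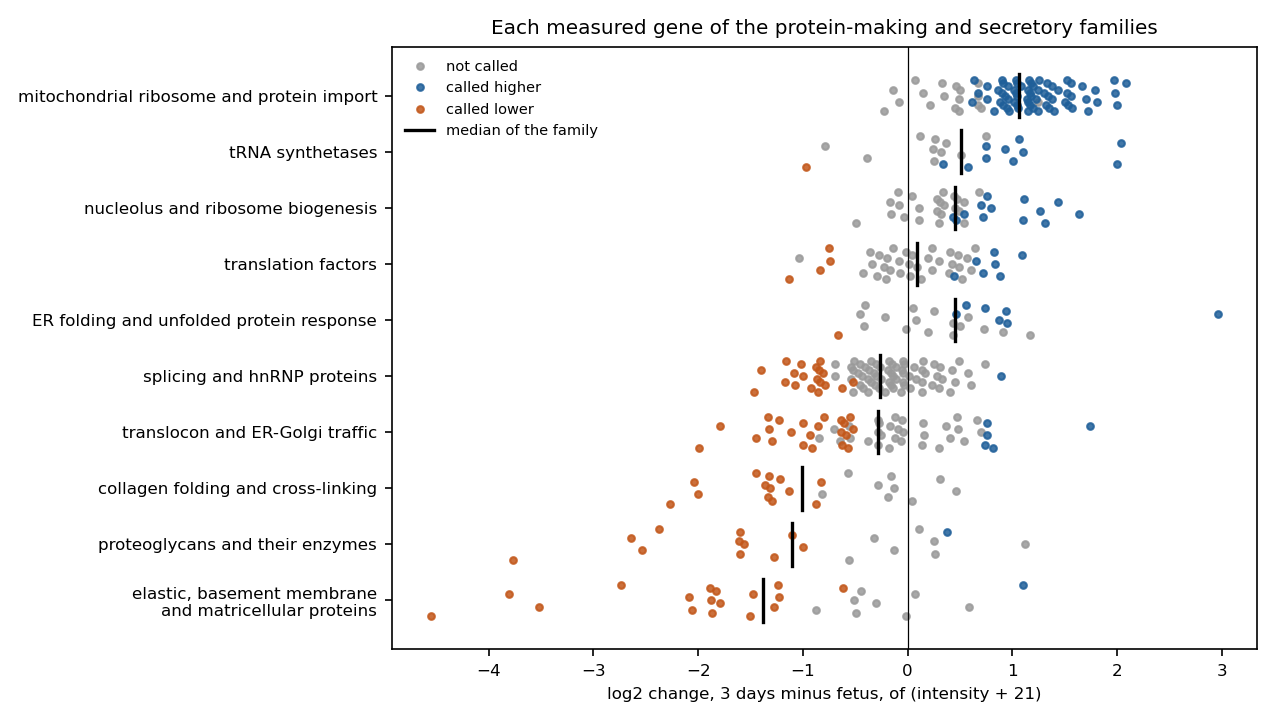
Log2 change of each measured gene (point) in 10 families of protein synthesis, RNA processing, secretion and matrix, 3 days minus fetus, coloured by limma's call at an adjusted p under 0.05, with the median of each family as a bar. Medians run from 1.06 for the mitochondrial ribosome and import to -1.38 for elastic, basement membrane and matricellular proteins, and points are spread vertically only for legibility.

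Genes for making collagen had calls in the lower direction only. Of 22 genes that fold, modify, export or cross-link collagen 13 fell (59.1%) and 0 rose by limma, also at an unadjusted p under 0.05, with a median of -1.01, and the same numbers were called on the hybridization controls. FKBP10, an ER prolyl isomerase needed for collagen cross-linking, read 830.0, 1525 and 823 in the fetus and 270.3, 198 and 135 at 3 days (log2 change -2.27 ± 0.40, limma adjusted p = 9.89e-04). FKBP9, a relative of it, fell from 676 ± 273 to 147 ± 54.6 (log2 change -2.04 ± 0.31, limma adjusted p = 3.67e-04). LOX, the lysyl oxidase that cross-links collagen and elastin, read 211, 398 and 319 in the fetus and 74.4, 52.1 and 53.1 at 3 days (log2 change -2.0 ± 0.29, limma adjusted p = 2.73e-04). CRTAP, of the complex that hydroxylates prolines in collagen, TRAM2, a translocon protein tied to collagen synthesis, and COLGALT1, which adds galactose to collagen, fell (log2 changes of -1.31, -1.36 and -1.22). SERPINH1, the collagen chaperone HSP47, and PLOD1, a lysyl hydroxylase, did not pass (-0.13 and -0.16), although the further probe set of PLOD1 was called lower. SERPINH1 overlapped, at 746, 913 and 609 in the fetus and 770.0, 467 and 865 at 3 days.

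Matrix families had more members lower than higher. Of 19 proteoglycan genes 11 fell and 1 rose (median -1.10), of 26 genes for elastic fibres, basement membrane and matricellular proteins 17 and 1 (median -1.38), of 13 collagen chains 7 and 2 (median -0.88), and of 31 matrix proteases and inhibitors 15 and 4 (median -0.53). Fibroblast markers were lower beside them (5 of 7, sums of 10372 to 15312 in the fetus and 4216 to 5692 at 3 days). Most of these markers, COL1A2, DCN, LUM, FBLN1, MFAP5 and DPT, are matrix genes themselves. They do not measure fibroblasts apart from the matrix, and the part of fibroblasts in the result was not tested. BGN, the small proteoglycan biglycan, read 1390, 1843 and 1637 in the fetus and 357, 275 and 258 at 3 days (log2 change -2.37 ± 0.36, limma adjusted p = 3.83e-04). SDC2, a heparan sulfate proteoglycan of the cell surface, read 622, 664 and 771 in the fetus and 125, 85.4 and 92.0 at 3 days (log2 change -2.54 ± 0.24, limma adjusted p = 1.45e-05). LUM, lumican, overlapped and did not pass (log2 change -0.56 ± 0.46, limma adjusted p = 0.347). ASPN, asporin, a small proteoglycan that binds collagen, fell from 2953 ± 684 to 476 ± 191, and DPT, dermatopontin, which helps collagen fibrils to form, from 1219 ± 309 to 167 ± 65.1.

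Among the proteases MMP14, a membrane-bound collagenase, read 465, 616 and 482 in the fetus and 68.2, 64.1 and 66.4 at 3 days (log2 change -2.63 ± 0.19, limma adjusted p = 2.96e-06), with 3 nearly equal values at 3 days. FAP, a serine protease of activated fibroblasts, fell from 897 ± 246 to 131 ± 58.3 (log2 change -2.64 ± 0.40, limma adjusted p = 3.44e-04), HTRA1, a secreted serine protease, changed by -1.98, and DPP4, a dipeptidyl peptidase of the cell surface, by -2.16. TIMP1, an inhibitor of metalloproteases, overlapped (655, 262 and 858 in the fetus and 306, 365 and 1120 at 3 days). MGP, the matrix Gla protein that keeps tissue from calcifying, went against the matricellular list that holds it and read 1408, 819.8 and 2273 in the fetus and 3138, 2740 and 3103 at 3 days (log2 change 1.10 ± 0.31, limma adjusted p = 0.0132). Without fetal array 2 the change of MGP was 0.73. Without fetal array 1, fetal array 2 or 3-day array 1 the proteases had 2 genes higher, without fetal array 3 the elastic and basement membrane list had 2, and without fetal array 2, 3-day array 1 or 3-day array 2 the collagens had 1. Proteoglycans had 0 higher by limma without fetal array 2 or 3-day array 3, 3 without fetal array 3, and 2 without 3-day array 1, 60-day array 1 or 60-day array 2.

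Of 13 integrins and adaptors 3 fell and 2 rose. ITGAV and ITGB5, which pair as a vitronectin receptor, fell (log2 changes of -1.06 and -1.05). ITGAV read 270.4, 351 and 247 in the fetus and 131, 121 and 126 at 3 days. ITGB1, the beta chain that most matrix receptors share, did not pass (log2 change -0.57 ± 0.24, limma adjusted p = 0.0762), and ITGB1BP2, melusin, a muscle protein that binds it, rose from 355 ± 190.5 to 1081 ± 465 (log2 change 1.61 ± 0.48, limma adjusted p = 0.0180). The call of melusin was lost without fetal array 3 (adjusted p = 0.0652), 3-day array 1 (adjusted p = 0.0712) or 3-day array 2 (adjusted p = 0.0650). Counts of this family with 1 array left out were 1 higher without fetal array 1, 2 or 3, 0 without 3-day array 1 or 2, and 2 lower without fetal array 2 or 3-day array 1 or 2. With hybridization-control centring 1 was higher and 6 lower.

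Cell adhesion and the cytoplasmic actin system had more genes lower. Of 45 cadherins, claudins, connexins and adhesion molecules 18 fell (40%) and 4 rose (8.89%), with a median of -0.29. CDH11, a cadherin of mesenchymal cells, read 467, 655 and 411 in the fetus and 86.7, 62.9 and 54.4 at 3 days (log2 change -2.57 ± 0.29, limma adjusted p = 5.31e-05). JAM3, a junctional adhesion molecule, read 618, 784 and 535 in the fetus and 127, 129 and 93.9 at 3 days (log2 change -2.27 ± 0.19, limma adjusted p = 9.18e-06). TSPAN2, a tetraspanin, fell from 156 ± 51.5 to 15.8 ± 4.90, and VCAM1, a cell adhesion molecule of vessels and muscle precursors, from 1685 ± 849 to 451 ± 364 (log2 change -2.02 ± 0.49, limma adjusted p = 0.00627). GJA1, connexin 43, fell (log2 change -1.15 ± 0.35), a call lost without fetal array 1 (adjusted p = 0.0566), fetal array 2 (adjusted p = 0.0740), 3-day array 2 (adjusted p = 0.0578) or 3-day array 3 (adjusted p = 0.0512). CLDN7, a claudin of epithelia, rose from 30.1 ± 7.86 to 167 ± 48.7 (log2 change 1.86 ± 0.29, limma adjusted p = 4.56e-04). NCAM1, the neural cell adhesion molecule, did not pass on its brightest probe set (0.39), but all 3 of its further probe sets were called lower.

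Of 51 actin and actin-binding genes 19 fell and 5 rose, with a median of -0.39. FSCN1, fascin, which bundles actin in cell protrusions, read 1710, 2172 and 1973 in the fetus and 373, 366 and 141 at 3 days (log2 change -2.75 ± 0.34, limma adjusted p = 8.99e-05). CNN3, the calponin of non-muscle cells, read 2165, 3007 and 2285 in the fetus and 642, 575 and 533 at 3 days (log2 change -2.04 ± 0.22, limma adjusted p = 3.71e-05). MARCKS, a membrane-bound actin regulator, and TMSB10, a thymosin that holds actin monomers, fell (log2 changes of -2.20 and -1.09). PDLIM3, a PDZ and LIM protein of the Z-disc, went against them and read 411, 601 and 601 in the fetus and 3220, 3058 and 3739 at 3 days (log2 change 2.60 ± 0.20, limma adjusted p = 5.42e-06). VCL, vinculin, overlapped between the stages (1218, 1824 and 996 in the fetus and 1288, 1189 and 1166 at 3 days). The call of TMSB10 was lost without 3-day array 3 (adjusted p = 0.0567). Without fetal array 3 or 3-day array 1 the family had 3 genes higher, and on the hybridization controls 1.

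In 21 tubulin and microtubule genes 5 fell and 0 rose by limma, also at an unadjusted p under 0.05. STMN1, stathmin, which takes microtubules apart, read 2510, 2311 and 1730 in the fetus and 705, 592 and 499 at 3 days (log2 change -1.83 ± 0.32, limma adjusted p = 8.60e-04). TPPP3, a microtubule-bundling protein, fell (log2 change -1.92), TUBA1B, an alpha-tubulin, changed by -0.71, and TUBB, a beta-tubulin, did not pass (-0.36). Of 22 kinesins and dyneins 3 fell and 0 rose by limma (2 were higher at an unadjusted p under 0.05). KIF2A, a kinesin that depolymerises microtubules, fell from 165 ± 48.0 to 61.4 ± 1.34 (log2 change -1.15 ± 0.16, limma adjusted p = 2.0e-04). Of 12 genes of the dystrophin complex, caveolae and membrane repair 2 rose and 2 fell. SGCD, delta-sarcoglycan, read 208, 252 and 148 in the fetus and 515, 845 and 614 at 3 days (log2 change 1.6 ± 0.28, limma adjusted p = 9.37e-04). BIN1, which shapes T-tubules, rose by 0.60, a call lost on the hybridization controls (0.196), DTNB, beta-dystrobrevin, fell (log2 change -1.11), and DMD, dystrophin, read 93.1, 183 and 94.0 in the fetus and 143, 131 and 121 at 3 days, without passing.

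Amino acid metabolism was among the families with more genes higher. Of 41 genes 16 rose (39.0%) and 4 fell (9.76%), with a median of 0.40, and 11 rose and 5 fell on the hybridization controls. The aminotransferases GOT1, GOT2 and GPT rose, while TAT, the tyrosine aminotransferase, did not pass on a dim probe set (0.18). GOT1, the cytosolic enzyme that moves amino groups between glutamate and aspartate, read 189, 169 and 149.9 in the fetus and 1501, 1507 and 543 at 3 days (log2 change 2.53 ± 0.38, limma adjusted p = 3.21e-04). GOT2, its mitochondrial counterpart, read 364, 618 and 299 in the fetus and 2448, 2524 and 2128 at 3 days (log2 change 2.47 ± 0.26, limma adjusted p = 3.13e-05). GPT, the alanine aminotransferase, rose from 51.5 ± 2.62 to 220.2 ± 64.6 (log2 change 1.70 ± 0.20, limma adjusted p = 6.47e-05). GOT1 and GOT2 belong to the malate-aspartate shuttle, and GPT makes alanine. The carriers of the shuttle rose as well. SLC25A11, which exchanges malate, and SLC25A12, which exchanges aspartate, rose from 167 ± 18.8 to 651 ± 67.7 and from 308 ± 76.2 to 1363 ± 653. ARG2, the mitochondrial arginase, read 45.7, 49.5 and 20.2 in the fetus and 112, 328 and 546 at 3 days (log2 change 2.36 ± 0.46, limma adjusted p = 0.00167).

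SAT1, which acetylates polyamines for export, was a member that fell (log2 change -1.34 ± 0.33, limma adjusted p = 0.00737), at 1177, 1302 and 2544 in the fetus and 493, 518 and 893 at 3 days. GLUL, glutamine synthetase, and ASNS, asparagine synthetase, did not pass and overlapped between the stages (0.82 and -0.72). Without fetal array 1 or 3-day array 1 the family had 2 genes lower.

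Of 28 purine and pyrimidine genes 7 rose and 7 fell. GART, ATIC and PAICS, enzymes of new purine synthesis, fell (log2 changes of -1.21, -0.88 and -0.72). GART read 159, 187 and 80.1 in the fetus and 54.2, 42.2 and 42.9 at 3 days (log2 change -1.21 ± 0.23, limma adjusted p = 0.00137). ADSSL1, the muscle adenylosuccinate synthase, read 242, 372 and 140.2 in the fetus and 1760, 1473 and 811 at 3 days (log2 change 2.35 ± 0.40, limma adjusted p = 6.93e-04), and ADSL, the lyase that acts after it, rose by 1.05. AMPD1, the deaminase that completes this cycle, overlapped and did not pass (1161, 1680 and 1284 in the fetus and 3145, 3872 and 909.8 at 3 days). RRM2 and TYMS, which supply deoxynucleotides for DNA, fell (log2 changes of -1.18 and -1.31). The call of PAICS, whose arrays overlap, was lost without fetal array 1 (adjusted p = 0.108), fetal array 2 (adjusted p = 0.149), 3-day array 1 (adjusted p = 0.0981), 3-day array 2 (adjusted p = 0.113), 120-day array 1 (adjusted p = 0.0502) or 120-day array 2 (adjusted p = 0.0513). By hybridization-control centring 5 were higher and 9 lower.

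Of 50 antioxidant, glutathione, selenoprotein and metallothionein genes 19 rose (38.0%) and 6 fell (12%), with a median of 0.67. Mitochondrial members were among the rises. SOD2, the mitochondrial superoxide dismutase, read 177, 346 and 693 in the fetus and 1115, 1104 and 1883 at 3 days (log2 change 1.85 ± 0.39, limma adjusted p = 0.00287). PRDX3 and TXN2, the mitochondrial peroxiredoxin and thioredoxin, rose by 1.19 and 1.19. MSRB1, a selenoprotein that repairs oxidised methionine, rose from 204 ± 81.1 to 782 ± 317 (log2 change 1.81 ± 0.35, limma adjusted p = 0.00180). SOD1, the cytosolic dismutase, did not pass (log2 change 0.68 ± 0.33, limma adjusted p = 0.114). Glutathione genes moved both ways. GCLM, the regulatory subunit of the first enzyme of its synthesis, rose by 0.87, while GSS, the second enzyme, fell from 138 ± 15.5 to 54.2 ± 13.3 (log2 change -1.09 ± 0.15, limma adjusted p = 1.81e-04) and GSR, which reduces glutathione, changed by -0.70. GPX7, an ER peroxidase, and GSTA4, a transferase for lipid aldehydes, fell (log2 changes of -1.61 and -1.80), while of the further probe sets of GPX7 1 was called higher and 1 lower. The call of GSR was lost without fetal array 2 (adjusted p = 0.0694) or 3-day array 1 (adjusted p = 0.0654). In the hybridization-control centring 13 were higher and 10 lower.

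Of 30 phospholipid, sphingolipid and peroxisome genes 7 rose and 2 fell. PHYH, the peroxisomal enzyme for branched fatty acids, read 733, 543 and 843 in the fetus and 2462, 2803 and 2470 at 3 days (log2 change 1.86 ± 0.22, limma adjusted p = 8.57e-05). LPCAT3 and AGPAT3, acyltransferases of phospholipid synthesis, rose by 1.62 and 1.37, and ASAH1, the lysosomal ceramidase, fell (log2 change -1.53). Without fetal array 3 or 60-day array 3 there were 4 genes lower, and on the hybridization controls 4 higher and 6 lower. Of 21 cholesterol synthesis genes 2 rose and 0 fell by limma, also at an unadjusted p under 0.05. One that rose was VLDLR, a lipoprotein receptor (0.83 ± 0.25), whose call was lost without fetal array 1 (adjusted p = 0.0744) or 3-day array 1 (adjusted p = 0.0833) and on the hybridization controls (0.124). HMGCS1, an early enzyme of the pathway, overlapped (0.24). The count higher was 1 without fetal array 1 or 3-day array 1 and 4 without 3-day array 3.

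Membrane transport changed gene by gene. Of 67 solute carriers outside the mitochondrial family 22 rose (32.8%) and 12 fell (17.9%), of which 11 and 8 had probe sets at or above the median intensity. SLC3A2, the heavy chain shared by several amino acid transporters, read 65.8, 66.0 and 93.4 in the fetus and 192, 172 and 224 at 3 days (log2 change 1.18 ± 0.17, limma adjusted p = 2.90e-04). SLC41A1, a magnesium transporter, rose from 72.8 ± 3.55 to 181 ± 23.7 (log2 change 1.10 ± 0.16, limma adjusted p = 2.86e-04). SLC15A2, a peptide transporter, read 133, 169 and 67.4 in the fetus and 25.9, 18.3 and 21.1 at 3 days (log2 change -1.69 ± 0.21, limma adjusted p = 1.16e-04), and SLC38A10, an amino acid transporter, fell (log2 change -1.32). SLC7A1, an importer of arginine and lysine, and SLC16A3, the lactate exporter of glycolytic cells, rose by 0.81 and 1.15. The call of SLC7A1 was lost without fetal array 3 (adjusted p = 0.0586) or 3-day array 2 (adjusted p = 0.0701) and that of SLC16A3, whose arrays overlap, without fetal array 2 (adjusted p = 0.0649) or 3-day array 3 (adjusted p = 0.0553). Both were lost on the hybridization controls (adjusted p = 0.0629 and 0.0656), where the family turned to 9 higher and 18 lower. The family had 14 higher and 7 lower without fetal array 2, 7 lower without fetal array 3, 15 higher and 5 lower without 3-day array 1, and 5 lower without 3-day array 2.

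The glucose transporters changed in opposite directions. SLC2A1, the carrier of most fetal tissues, read 93.6, 76.3 and 154 in the fetus and 29.1, 23.4 and 86.6 at 3 days (log2 change -1.01 ± 0.29, limma adjusted p = 0.0138). SLC2A3, a high-affinity carrier, read 191, 185 and 1402 in the fetus and 54.2, 36.8 and 139.9 at 3 days (log2 change -2.16 ± 0.61, limma adjusted p = 0.0133), with fetal array 3 far above the others. SLC2A4, the insulin-responsive carrier of muscle and fat, read 44.8, 47.7 and 63.9 in the fetus and 117, 109 and 108 at 3 days (log2 change 0.86 ± 0.14, limma adjusted p = 4.68e-04), and its further probe set was called higher. The arrays of SLC2A1 overlapped, and its call was lost without fetal array 3 (adjusted p = 0.0511), 3-day array 1 (adjusted p = 0.0583) or 3-day array 2 (adjusted p = 0.0626), that of SLC2A3 without 3-day array 2 (adjusted p = 0.0546). Without fetal array 3 the change of SLC2A3 was 0.573 times its size with all arrays. These carriers were 1 of 10 measured pairs of a general and a muscle form compared here. Among these 10 they were the 1 pair called in opposite directions. PRKAB2 and PRKAB1, kinase subunits described below and not among the 10 pairs, were also called in opposite directions. The muscle forms SLC25A4, an ADP/ATP carrier (1.64), PRKAA2, a catalytic subunit of the energy sensor AMPK (1.03), CAPN3, a calpain (0.72), and PDLIM3 rose, while their general forms SLC25A5 and SLC25A6, PRKAA1, CAPN2 and PDLIM1 did not pass. Other pairs went otherwise. PHKG2, the general gamma subunit of phosphorylase kinase, rose by 0.68 while the muscle form PHKG1 did not pass (0.11). FHL3 and FHL1 both rose (2.95 and 0.87), but FHL3, entered as the general form, is itself a LIM domain protein of muscle. Neither form passed for the cofilins CFL1 and CFL2 or the AMPK gamma subunits PRKAG1 and PRKAG3. The call of PHKG2 was lost without fetal array 2 (adjusted p = 0.0536), and those of PHKG2 and FHL1 on the hybridization controls (0.114 and 0.0630). The difference between the forms was not tested. SLC25A4 read 1713, 1846 and 1912 in the fetus and 6084, 5928 and 5185 at 3 days, and SLC25A6 3128, 3654 and 3666 in the fetus and 1302, 1939 and 3003 at 3 days. The call of PRKAA2 was lost without fetal array 1 (adjusted p = 0.0730), 3-day array 1 (adjusted p = 0.0733) or 3-day array 2 (adjusted p = 0.0968) and that of CAPN3 without fetal array 1 (adjusted p = 0.0502), and both on the hybridization controls (0.0705 and 0.140).

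Of 19 mitochondrial solute carriers 6 rose and 2 fell, and on the hybridization controls 6 rose and 7 fell. SLC25A20, which brings acylcarnitines into mitochondria, rose from 89.6 ± 10.6 to 359 ± 101 (log2 change 1.75 ± 0.20, limma adjusted p = 5.31e-05), and SLC25A30, a carrier of the uncoupling protein family, fell (log2 change -1.0). Without fetal array 2, 3-day array 1, 3-day array 2, 60-day array 3 or 120-day array 2 only 1 was lower. Of 32 ion channels and pumps 9 rose and 4 fell. ATP1B1, the beta subunit of the sodium pump, read 298, 339 and 469 in the fetus and 2208, 1875 and 1973 at 3 days (log2 change 2.41 ± 0.21, limma adjusted p = 9.94e-06), and ATP1B3, another beta subunit, read 583, 527 and 428 in the fetus and 369.7, 305 and 322 at 3 days and did not pass (-0.59 ± 0.22, limma adjusted p = 0.0505). FXYD6, a regulator of that pump, read 819, 1242 and 1029 in the fetus and 271, 369.7 and 204 at 3 days (log2 change -1.81 ± 0.29, limma adjusted p = 4.65e-04). In store-operated calcium entry ORAI1, the channel, rose by 1.05, and STIM2, a calcium sensor of the ER, fell (log2 change -1.28). CLIC1, an intracellular chloride channel, fell (log2 change -1.01), a call lost without 3-day array 1 (adjusted p = 0.0504). After hybridization-control centring the channels turned to 4 higher and 6 lower.

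Lysosome and autophagy genes were lower more often than higher. Of 46 genes 15 fell (32.6%) and 3 rose (6.52%), with a median of -0.29. BNIP3L, a receptor for the removal of mitochondria, read 681, 689.8 and 571 in the fetus and 108, 129.8 and 155 at 3 days (log2 change -2.14 ± 0.27, limma adjusted p = 9.93e-05). GUSB and LIPA, lysosomal hydrolases for glycosaminoglycans and lipids, fell. GUSB read 223, 268 and 215 in the fetus and 82.5, 73.0 and 54.9 at 3 days (log2 change -1.50 ± 0.19, limma adjusted p = 1.17e-04), and LIPA fell from 385 ± 164 to 103 ± 23.5. LAMP1 and LAMP2, abundant lysosomal membrane proteins, fell (log2 changes of -0.69 and -0.79). TP53INP2 was the 1 bright member that rose. SQSTM1, the cargo receptor p62, and BECN1, beclin, overlapped and did not pass (0.53 and -0.082). The call of LAMP1 was lost without fetal array 1 (adjusted p = 0.0561), fetal array 3 (adjusted p = 0.0611), 3-day array 1 (adjusted p = 0.0826) or 3-day array 2 (adjusted p = 0.0994). Only 1 gene of the family was higher without fetal array 1, fetal array 2, 120-day array 1 or 120-day array 2, and 1 on the hybridization controls.

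Of 88 ubiquitin genes 20 rose and 15 fell, close to the shares of all genes. USP2, a deubiquitinase with a daily rhythm in many tissues, read 69.9, 73.4 and 64.7 in the fetus and 465, 278 and 166 at 3 days (log2 change 1.73 ± 0.34, limma adjusted p = 0.00173). UCHL3, a ubiquitin hydrolase, and UBE2D4, a conjugating enzyme, rose by 1.66 and 1.82. UBE2C, the conjugating enzyme of mitotic exit, fell from 365 ± 115 to 98.2 ± 47.4 (log2 change -1.72 ± 0.28, limma adjusted p = 5.42e-04), and TRIM44 fell (log2 change -1.23). FBXO32, the muscle ubiquitin ligase atrogin-1, read 184, 68.2 and 815 in the fetus and 26.4, 61.2 and 2378 at 3 days, so that the arrays within each stage spread over most of the range. Under hybridization-control centring the family turned to 8 higher and 28 lower.

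Kinases and phosphatases had calls in both directions. Of 53 genes of AMPK, PKA, PKC, CaMK and MAP kinases 9 rose and 9 fell (17.0% each, against 22.7% and 19.0% of all genes). MAPK12, the p38 kinase abundant in muscle, read 132, 118 and 90.3 in the fetus and 559, 646 and 499.7 at 3 days (log2 change 2.14 ± 0.24, limma adjusted p = 5.76e-05), while MAPK14, the general p38 kinase, did not pass (0.39). PRKAB2, a beta subunit of AMPK in muscle, read 102, 184 and 76.1 in the fetus and 635, 654 and 385 at 3 days (log2 change 2.07 ± 0.36, limma adjusted p = 9.03e-04), and PRKAB1, the other beta subunit, fell from 94.4 ± 8.87 to 58.6 ± 17.3 (log2 change -0.56 ± 0.15, limma adjusted p = 0.00955). The anchoring proteins AKAP1 and AKAP11, which tether PKA, fell (log2 changes of -1.50 and -1.59). Of 51 phosphatase genes 10 rose and 6 fell (19.6% and 11.8%). PPP3CC, a catalytic subunit of calcineurin, rose from 70.9 ± 19.2 to 262 ± 93.9 (log2 change 1.59 ± 0.28, limma adjusted p = 8.82e-04), and PPP3CA, another one, overlapped (0.69). PPP1R12A, which targets phosphatase 1 to myosin, fell from 808 ± 137 to 384 ± 59.8 (log2 change -1.03 ± 0.22, limma adjusted p = 0.00318). Without fetal array 1 the phosphatases had 6 genes higher. With hybridization-control centring the kinases had 5 higher and 10 lower, and the phosphatases turned to 4 and 9.

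RGS2 and RGS5, which quench G protein signals, moved apart. RGS2 read 568, 331 and 822 in the fetus and 98.5, 54.4 and 119.8 at 3 days (log2 change -2.37 ± 0.30, limma adjusted p = 1.08e-04), and RGS5, a marker of pericytes, read 289, 581 and 249.5 in the fetus and 1699, 1460 and 1484 at 3 days (log2 change 2.08 ± 0.28, limma adjusted p = 1.93e-04). Summed smooth muscle and pericyte markers, RGS5 among them, were 3997 to 6493 in the fetus and 6466 to 7493 at 3 days. Of the 7 markers RGS5 was the one called higher, PDGFRB (-0.87) and MCAM (-0.97) were called lower, although the further probe set of PDGFRB was called higher, and ACTA2 did not pass (0.0061). DES, which is also a skeletal muscle marker, had means of 1283 and 2161 without passing. Their part in the result was not tested. Of 35 genes of the BCL2 family, caspases and p53 targets 7 rose and 6 fell. AIFM1 and ENDOG, mitochondrial proteins known from cell death, rose from 215 ± 7.89 to 838 ± 105 and from 41.3 ± 7.40 to 205 ± 67.1, PERP, a p53 target, rose by 1.84, and CDKN1A, the p21 inhibitor of the cell cycle, overlapped (1911, 2791 and 1350 in the fetus and 2467, 1162 and 1524 at 3 days). In S100 proteins, annexins and galectins 1 of 15 rose and 3 fell. S100A11 read 1193, 537 and 1145 in the fetus and 316, 328 and 317 at 3 days (log2 change -1.44 ± 0.34, limma adjusted p = 0.00551) and ANXA2, annexin A2, fell from 2143 ± 236 to 1141 ± 77.3 (log2 change -0.89 ± 0.17, limma adjusted p = 0.00131). With 1 array left out the S100 list had 0 higher by limma without fetal array 1 or 2, 3-day array 2 or 3 or any 120-day array, and 2 without fetal array 3. It had 2 lower without fetal array 3, 3-day array 2 or any 120-day array.

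Few immune genes were called. Of 52 genes for complement, MHC and innate receptors 7 rose (13.5%) and 2 fell (3.85%), both below the shares of all genes. CFD, complement factor D, also known as adipsin, read 61.2, 39.6 and 96.4 in the fetus and 213, 419.8 and 789.9 at 3 days (log2 change 2.39 ± 0.48, limma adjusted p = 0.00204), and 3 of 6 adipocyte markers were higher beside it, with sums of 354 to 618 in the fetus and 578 to 1367 at 3 days. ADIPOQ, adiponectin, a defining one, read 8.49, 11.5 and 7.14 in the fetus and 10, 13.2 and 15.5 at 3 days. Of the 3 called higher, LEP and RETN were dim and FABP4 had overlapping arrays. All 3 lost their calls on the hybridization controls (limma adjusted p = 0.128, 0.310 and 0.0679), and each without certain single arrays. The part of adipocytes in the result was not tested. IRF3, a transcription factor of the interferon response, rose from 61.3 ± 13.1 to 165 ± 45.1 (log2 change 1.15 ± 0.32, limma adjusted p = 0.0116). STAT2, which carries interferon signals, read 81.5, 127 and 229 in the fetus and 57.0, 56.3 and 62.7 at 3 days (log2 change -0.97 ± 0.26, limma adjusted p = 0.00964), and changed by -0.63 without fetal array 3. B2M, the light chain of MHC class I, read 3502, 3136 and 3896 in the fetus and 3645, 3857 and 4007 at 3 days and did not pass, with 2 of its 8 further probe sets called higher and 2 lower. C3, the central complement protein, stood high on fetal array 3 and 3-day array 3 only (24.9, 32.5 and 529 in the fetus and 30.1, 41.3 and 577 at 3 days). Without fetal array 3, on which immune markers were highest, 14 genes of the list were higher, and without fetal array 2 there were 4. The count lower was 4 without fetal array 1 or 3-day array 3. On the hybridization controls 5 were higher and 5 lower.

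Some families had few measured genes. Among 7 carbonic anhydrases and aquaporins 2 rose and 1 fell. CA9, a carbonic anhydrase induced by low oxygen, changed by 1.32 ± 0.41 and CA12, dim on the arrays, by -0.73 ± 0.19, and CA3, the abundant enzyme of slow muscle, overlapped (2872, 3335 and 2411 in the fetus and 2660, 2581 and 2109 at 3 days). The call of CA9 was lost without fetal array 2 (adjusted p = 0.0753), its change was 0.534 times as large without 3-day array 3, and 1 of the family was higher without fetal array 2. Only 3 genes of the neuromuscular junction were measured. ETV5, described above with the ETS factors, fell, and CHRNA1, a subunit of the acetylcholine receptor, did not pass (101, 118 and 83.6 in the fetus and 38.3, 44.1 and 152 at 3 days). Without 3-day array 3, 2 of the 3 were lower.

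Few of the genes called across birth were called again later. Of the 1307 genes that rose, 9 were higher and 32 lower at 60 than at 3 days, and 33 were higher and 79 lower at 120 than at 3 days. Of the 1095 that fell, 7 and 6 were called at 60 days and 14 and 19 at 120 days. Among all genes 0.694% were called higher and 0.798% lower at 60 days, and 1.99% and 2.79% at 120 days. These comparisons share the 3-day arrays with the comparison across birth. A deviation of those arrays enters the earlier and the later change with opposite signs. TFRC, which had risen, changed by -2.84 at 60 days (limma adjusted p = 0.0178) and -2.44 at 120 days (adjusted p = 0.0177). TP53INP2 changed by -1.74 at 60 days (limma adjusted p = 0.0423) and -1.81 at 120 days (adjusted p = 0.0197). AIMP2 changed by -1.33 at 60 days (limma adjusted p = 0.0250) and -1.33 at 120 days (adjusted p = 0.0132). In these genes the 3-day arrays were the highest of the 4 stages on average. PRRX1 changed by -0.74 at 60 days (limma adjusted p = 0.0264) and -1.32 at 120 days (adjusted p = 7.56e-04), and GLRX, a glutaredoxin of the cytosol that had risen from 275 ± 200.1 to 784 ± 185, by -2.27 at 60 days (limma adjusted p = 0.0248) and -2.30 at 120 days (adjusted p = 0.0121).

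Other genes continued or turned back. NR3C1, which had fallen, changed by 1.32 at 60 days (limma adjusted p = 0.0264) and 1.17 at 120 days (adjusted p = 0.0241). Its mean was 405 ± 113 in the fetus, 120.4 ± 25.4 at 3 days and 328 ± 27.5 at 60 days (SD, n = 3). PPP1R1A rose again by 120 days, with changes of 0.74 at 60 days (limma adjusted p = 0.255) and 1.43 at 120 days (adjusted p = 0.0233). SMYD2 rose again by 120 days, with changes of 1.42 at 60 days (limma adjusted p = 0.0525) and 1.67 at 120 days (adjusted p = 0.0153). DNMT1 fell again by 120 days, with changes of -1.03 at 60 days (limma adjusted p = 0.0611) and -1.45 at 120 days (adjusted p = 0.00795). KLF9 showed no further call, with changes of 0.33 at 60 days (limma adjusted p = 0.561) and -0.34 at 120 days (adjusted p = 0.531), nor did MDK, with 0.11 at 60 days (limma adjusted p = 0.932) and 0.49 at 120 days (adjusted p = 0.619). Different animals were sampled at each stage, so these are not courses within an animal.

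**Figure D5:**
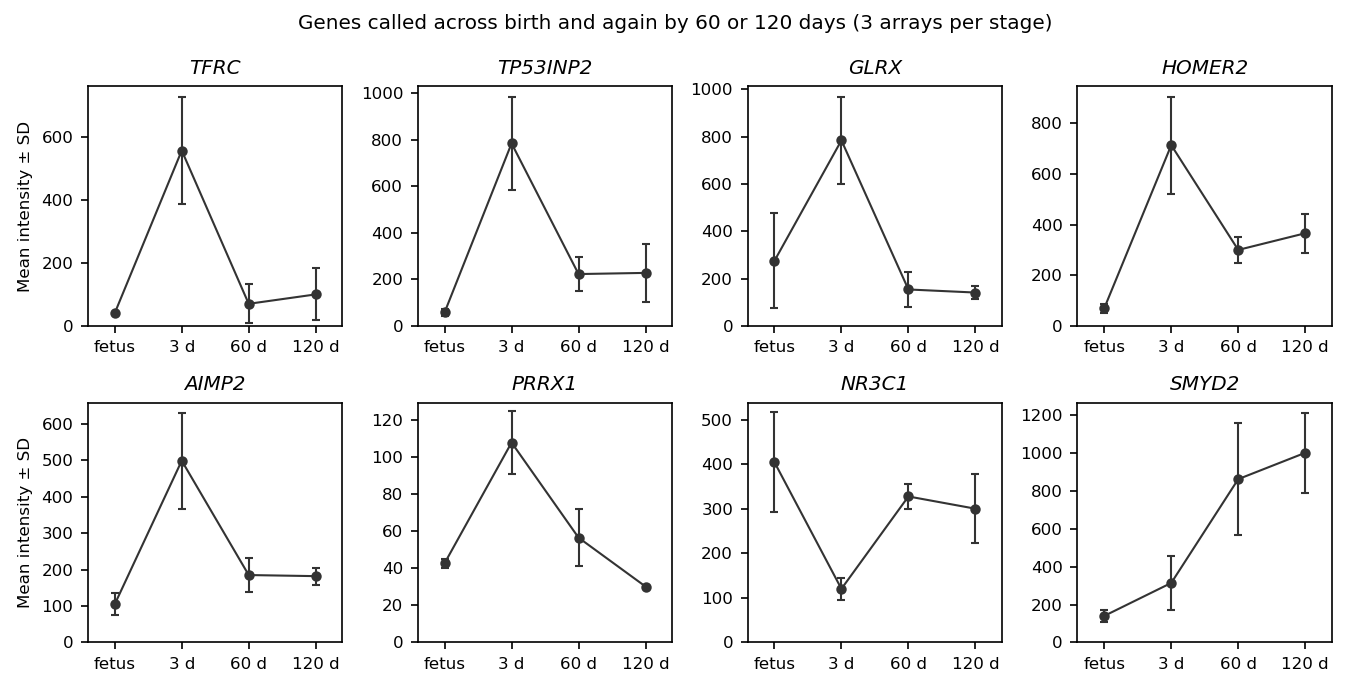
Mean intensity (linear units of the array) with SD of 3 arrays at each of the 4 stages, for 8 genes called across birth and again at 60 or 120 days against 3 days. TFRC, TP53INP2, GLRX, HOMER2, AIMP2 and PRRX1 peak at 3 days, NR3C1 has its lowest mean there, and SMYD2 is higher at each later stage.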

How the data were processed

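Intensities of porcine Affymetrix arrays were used as the authors deposited them, on a linear scale. The submitters' processing notes name GCOS 1.4, while for the summary method and the scaling none of the labels or headers gives an answer (not given in the sources used here). Of 24123 probe sets, 124 controls were left out, and 16166 of the other 23999 (67.4%) were kept because they lay above the 40th percentile of their array on at least 3 of the 12 arrays. Of these 23999, a platform annotation gives 10069 probe sets 1 symbol and 198 several, and 13732 are not listed. The symbols of 9961 were found among RefSeq names. A gene was read by its probe set of highest mean, which gave 5765 genes.

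The log2 of the intensity plus 21 was fitted with limma 3.58.1 (R 4.3.3) over all 12 arrays and 4 stages, with a variance trend, and p-values were adjusted by Benjamini-Hochberg over the 16166 probe sets. A gene was called at an adjusted p under 0.05. An exact permutation test of 3 against 3 arrays cannot go below p = 0.1, so none was used. Of 100 probe sets simulated with a 2-fold change 63.0% were recovered, and of 100 with a 4-fold change 97.0%. There were 8 false calls among 16166 probe sets. Far fewer probe sets were changed there than the 43.0% called in the data, so these rates cannot be carried over to this comparison. Tables and figures were made with Python 3.11.15, pandas 2.3.3, NumPy 2.4.6 and matplotlib 3.10.9.

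The families and the comparison were chosen with earlier results of these data known. By rule the text draws on the 15 largest called rises and 15 largest called falls without overlap at or above the median intensity, up to 4 called genes of each of 51 families under the same conditions, up to 2 called against the family's majority, up to 2 central ones not called, and pairs of general and muscle forms, 342 genes in all. A further 36 were chosen after their values were seen, such as CRTAP, SEC24D, COPA, NR2F2, THRA, TSC22D3, CEBPD, HSD11B1, PRDX3, GSS, EZH2, DNMT1, NFIC, LAMP1 and GJA1, as were U2AF2, NOTCH4 and ID2. Alternatives were other pseudocounts, filters, normalizations, centring on hybridization controls, array weights, a replicate block, a 2-fold minimum, other probe sets per gene and each array left out. One of the 51 families is not reported here. No sequence is shown.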

Additional observations from a re-analysis of the deposited data

How the results depend on the processing

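Calls over 16166 probe sets (3286 higher, 3659 lower) and over 1509 family genes (327 and 319) were recounted under each alternative. Centring on the hybridization controls gave 1574 higher and 5175 lower probe sets and 182 and 459 family genes, and a tested minimum of 2-fold gave 112 and 250 probe sets and 14 and 25 family genes. Leaving out 1 array gave 2454 to 3435 higher and 2902 to 3759 lower probe sets, and 253 to 349 and 261 to 332 family genes. Under the other alternatives these counts stayed within 1.5 times. The replicate numbers were not taken to pair the samples, since same-numbered fetal and 3-day arrays deviated together with r of 0.090, 0.143 and 0.260, and 3-day array 1 correlated better with fetal array 2 (0.147). With the replicate block 3048 probe sets were higher and 3498 lower, and 301 and 307 family genes. Of 275 named genes that were called, 224 kept the call without each single array, 240 on the hybridization controls and 53 under all alternatives, the 2-fold minimum included.

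Some family counts moved by over 1.5 times on the hybridization controls beyond those in the text above. The glucocorticoid list then had 7 higher and 3 lower, nuclear receptors 3 and 8, Notch 1 and 6, guidance genes 1 and 3, collagen chains 1 and 7, matrix proteases 1 and 16, adhesion 2 and 20, autophagy and lysosome 1 and 19, actin regulators 1 and 26, the dystrophin complex 1 and 2, cholesterol synthesis 1 and 1, and carbonic anhydrases and aquaporins 2 and 2. The calls in the higher direction were lost in ID proteins, histones, proteoglycans and the S100 list, with 2, 4, 13 and 6 lower, microtubule genes had 9 lower, and the neuromuscular junction 2. By quantile normalization the BCL2 list had 11 higher and 4 lower, kinesins and dyneins 3 and 4, histones 1 and 2, the dystrophin complex 1 and 2, integrins 1 and 3, and proteoglycans 2 and 11.

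Reading each gene by its probe set of lowest p turned the log2 change of IFIT2 to -1.09, NCAM1 to -2.84, PER1 to -1.94, RBPJ to -1.13, SDC1 to -0.87, SLC38A1 to -1.23, PPARD to 0.44, SREBF2 to 0.31 and THRA to 0.51. The cause was not tested. The number of arrays, the unknown summary method and dim probe sets limit the precision.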

Other observations

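Of 8143 kept probe sets without a single symbol, 1466 were called higher and 2150 lower by limma. Their largest log2 changes were 4.12 and 3.88 upwards and -4.59 and -4.47 downwards. They are not named here.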
